A study of Homo sapiens with 2 samples.

Results

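Proteases that cut the matrix and the cell surface are held in check by inhibitors that fit one class each, and 6 genes of this system are described here: TIMP1, TIMP3, SERPINA3, CSTA, LXN and MMP9. They were taken by name from the 2046 genes of the deposited table, and all 6 were found. TIMP1 and TIMP3 encode tissue inhibitors of metalloproteinases, SERPINA3 a serpin that blocks serine proteases such as cathepsin G, CSTA the cysteine protease inhibitor cystatin A, also called stefin A, and LXN latexin, an inhibitor of carboxypeptidases. MMP9 is the gelatinase B that cleaves denatured collagens and basement membrane collagen. The names were selected on the expression values and read counts of these same 2 libraries, so every value below describes the contrast that chose the genes.

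The libraries came from MDA-MB-231, a human triple-negative breast cancer line grown as a culture in DMEM with fetal bovine serum. One was wild type (labelled TAMER+/+) and 1 carried a knockout (labelled TAMER-/-), taken here as TMEM25 because the design text names that transmembrane protein as the gene removed. The title of the series places the comparison in the activation of the transcription factor STAT3 by monomeric EGFR in this cancer. Whether the knockout cells were 1 clone or a pool, and how the gene was disrupted, is not given in the sources used here. With 1 library per genotype, no difference has a replicate check and no p-value is given.

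In every gene of the table the expression value was no less than 1 in the knockout and 2 or more times that of the wild type, so the direction was fixed for every gene in it. TMEM25 was not analysed here, and its loss could not be checked. The headers of the deposited log2 columns are crossed, and those of the other columns decide here which library is the knockout. Reads per gene had a median of 677.8 (knockout) and 142 (wild type), and the total depth of either is unknown. Of 12 markers of mesenchymal cells such as MDA-MB-231 (VIM, CD44, AXL and others), 0 are in the table, and their levels were not analysed here. The luminal breast markers TFF1 and TFF3 are, 2 of 15 on that list. TFF1 was at 5920.23 in the knockout against 0.94 in the wild type, on 7 wild-type reads, and TFF3 at 127.85 against 3.68. The summed expression value was 6048 in the knockout, mostly TFF1, and 4.62 in the wild type, mostly TFF3. No luminal marker in the table stood at 0 in either library. Their part in the differences below was not tested.

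Serpins trap a serine protease by a bait loop that the protease cuts, TIMPs sit in the active site of a metalloproteinase, and cystatins and latexin plug the active site of their targets without being cut. In tumours, TIMP1 and SERPINA3 are known as secreted products of cells under inflammatory signals, among them STAT3, while TIMP3 binds to the extracellular matrix. CSTA is a cytosolic protein of squamous epithelia and LXN a cytosolic protein of many tissues. MMP9 is made by leukocytes and by some tumour cells and is inhibited by TIMP1.

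Sequence before the start of the members was set out because the study asks about STAT3. All 6 genes lay on the same side of the comparison, as was fixed for every gene of the table. RefSeq promoter windows (GRCh38.p14, 250 bases before to 50 after the start) matched 4 of the 6, namely TIMP1, TIMP3, SERPINA3 and LXN, while CSTA and MMP9 had no entry. The bases of TIMP3, SERPINA3 and LXN below stop before the first exon that GENCODE 29 annotates there. The SERPINA3 stretch ends at 94612296, short of the annotated start of that gene at 94612377, so the bases between are not shown. TIMP1 is shown by 30 bases around the variant AP-1 site for which its promoter is known, which lie before the RefSeq start but inside the first exon of TIMP1 in GENCODE 29. Capitals mark the letters of the motifs searched, on both strands. These were the STAT motif spelled TTCNNNGAA, the common AP-1 motif spelled TGANTCA, the variant of TIMP1 spelled TGAGTAA, the GC box spelled GGGCGG and the TATA box spelled TATAAA.
TIMP3, chr22:32801455-32801700, plus strand: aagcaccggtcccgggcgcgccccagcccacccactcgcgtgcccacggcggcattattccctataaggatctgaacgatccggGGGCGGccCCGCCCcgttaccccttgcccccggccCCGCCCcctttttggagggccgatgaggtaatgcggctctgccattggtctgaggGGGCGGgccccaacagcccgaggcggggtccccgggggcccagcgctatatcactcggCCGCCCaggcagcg
SERPINA3, chr14:94612141-94612296, plus strand: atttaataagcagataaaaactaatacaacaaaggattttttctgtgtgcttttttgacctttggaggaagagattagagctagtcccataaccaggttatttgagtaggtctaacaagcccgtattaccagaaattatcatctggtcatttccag
LXN, chr3:158672694-158672898, minus strand: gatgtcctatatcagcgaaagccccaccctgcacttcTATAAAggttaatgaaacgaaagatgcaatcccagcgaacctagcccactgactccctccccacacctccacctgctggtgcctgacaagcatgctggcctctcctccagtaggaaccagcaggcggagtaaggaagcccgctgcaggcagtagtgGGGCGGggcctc
TIMP1 site, chrX:47582324-47582353, plus strand: tggtgggtggaTGAGTAAtgcatccaggaa

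These stretches differ in make-up. The 300-base window of TIMP3 was 72.7% G and C with 31 CpG dinucleotides and 5 GC boxes. That of SERPINA3 was 42.3% G and C with 3 CpG dinucleotides and matched none of the 5 motifs. TIMP1 lay between them at 65% with 2 GC boxes and LXN at 58.7% with 1, against a median of 58.3% over 27305 genes with 1 window each and 66% over the genes of the table. None of the matches overlapped another.

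The STAT letters TTCNNNGAA were in none of the 4 windows, against 7.88% of the 27305 windows and 6.34% of those of genes in the table. The AP-1 letters TGANTCA were in none either, against 7.76% of all windows and 5.71% of those of genes in the table. Motifs this rare would mostly be missing from 4 windows anyway, so nothing is read from their absence. TGAGTAA, searched because it is the known site of TIMP1, was in that window from position -101 relative to the RefSeq start and in 2.62% of all windows. TATAAA was in the LXN window alone among the 4, from position -213, and in 11.95% of all windows. GC boxes were in 3 of the 4, against 44.6% of all windows and 68.8% of the 1610 windows of genes in the table. These matches describe letters in a short window and not sites in use.

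All 6 genes were higher in the knockout, as every gene of the table is. On the log2(value + 1) scale of the expression values, 5 of the 6 reached 2-fold, beside 80.6% of all genes of the table. The same 5 reached 4-fold, beside 21.3%. The ratio in the authors' deposited table was at least 10 in 4 of the 6, beside 20.1%. By read counts, the lower limit of the 95% counting interval lay above 2-fold in 6 of 6, beside 76.5%. The median log2 ratio of the 6 was 3.93, against 1.33 for the table. Because the rule used this contrast, nothing is read from these counts. In bulk RNA of this kind, fewer cells that make a transcript and less of it per cell cannot be told apart.

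**Figure D1:**
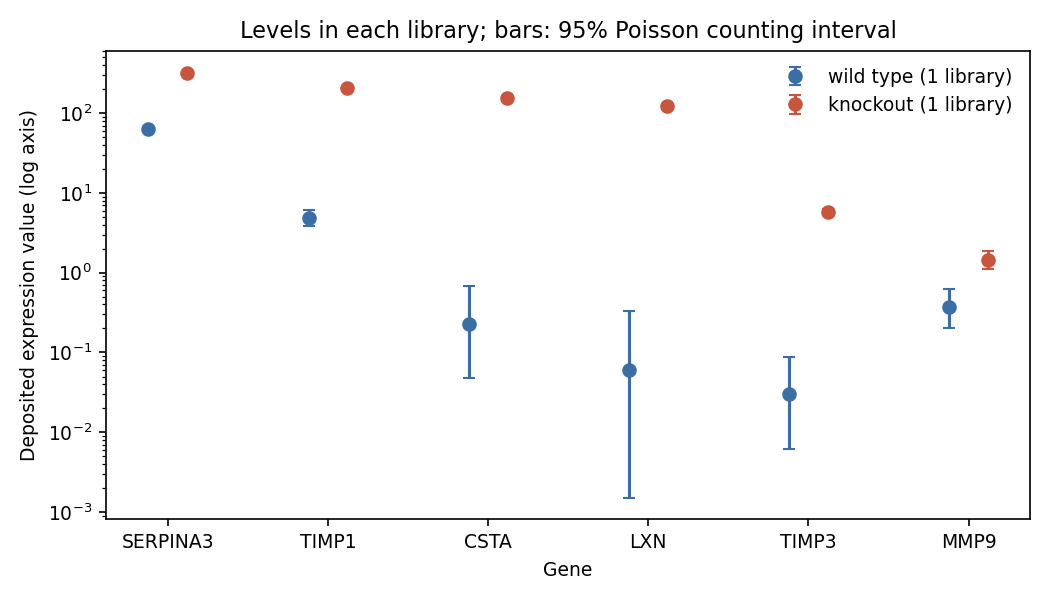
Deposited expression value (log axis) of the 6 genes in the wild type (blue) and the knockout library (red), 1 library each, with 95% Poisson counting intervals from the reads. SERPINA3 was the highest in both libraries, and the wild-type values of CSTA, LXN and TIMP3 rest on 3, 1 and 3 reads.

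TIMP1, which binds most secreted matrix metalloproteinases and forms a complex with the proform of MMP9, had an expression value of 208.87 in the knockout and 4.89 in the wild type. These values came from 3460 and 70 reads, with Poisson intervals of 202 to 216 and 3.81 to 6.18 in expression units. The 2 libraries were far apart and the wild-type level, though low, did not rest on single reads. The read-count fold was 42.8 (95% counting interval 33.8 to 55.0). By level, TIMP1 ranked 107th of the 2046 genes in the knockout and 832nd in the wild type.

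TIMP3, the matrix-bound member of the family, which also inhibits ADAM17 and aggrecanases, stood at 5.72 against 0.03, from 586 and 3 reads. Its level was low even in the knockout, where it ranked 1357th, and close to nothing in the wild type. The read-count fold of 169 had an interval of 57.6 to 822. Its longest annotated transcript has 4603 bases against 1095 for TIMP1, and 1 unit of its expression value stood for 102 knockout reads against 16.6 for TIMP1. Read numbers of the 2 genes are therefore much closer than their levels.

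Per unit of length, TIMP1 was 36.5 times the level of TIMP3 in the knockout and 163 times in the wild type. The fold of TIMP3 was 3.95 times that of TIMP1, with a 95% counting interval of 1.29 to 19.7. TIMP1 made up 97.3% of the summed TIMP1 and TIMP3 level in the knockout and 99.4% in the wild type. TIMP1 thus remained the bulk of the TIMP RNA in the table in both libraries. Of the 6 metalloproteinase inhibitors listed, these were the 2 in the table, while TIMP2, TIMP4, RECK and A2M were not analysed here.

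MMP9, the target among the 6, was at 1.46 against 0.37, from 63 and 14 reads. Poisson intervals of 1.12 to 1.87 and 0.20 to 0.62 did not overlap. Both levels were low, ranking 1902nd of the 2046 genes in the knockout and 1646th in the wild type. The read-count fold was 3.90 with an interval of 2.16 to 7.53. The log2 ratio of 0.84 missed the 2-fold rule because 1 unit is added to values that are themselves near 1. A pseudocount of 0.1 gave 1.73.

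Set against MMP9 within each library, which needs no scaling of depth, the inhibitors fell into separate cases. The level of TIMP1 was 143 times that of MMP9 in the knockout and 13.2 times in the wild type, and the fold of TIMP1 was 10.98 times that of MMP9 (95% counting interval 5.41 to 21.0). TIMP3 was 3.92 times the level of MMP9 in the knockout and 0.081 times in the wild type, with a ratio of folds of 43.4 (11.5 to 239). TIMP3 RNA was below MMP9 RNA per unit of length in the wild type and above it in the knockout, on 3 wild-type reads of TIMP3. SERPINA3, which does not target MMP9, had a fold 1.29 times that of MMP9, with an interval of 0.67 to 2.34 that includes 1.

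SERPINA3, an acute-phase protein also called alpha-1-antichymotrypsin, was at 321.17 against 63.88, from 9385 and 1615 reads. It was the most abundant of the 6 in both libraries, ranking 59th and 117th in the table by level. Its fold of 5.03 (4.77 to 5.31) was the most precise of the 6, because its wild-type RNA was already plentiful. SERPINA3 held 89.9% of the summed level of the 7 serpins of the table in the knockout and 90.7% in the wild type. Its part of the serpin RNA in the table was therefore nearly equal in both.

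CSTA, which blocks cathepsins B, H and L and is known from the cornified envelope of keratinocytes, was at 154.15 against 0.23, from 2295 and 3 reads. The wild-type library held it near the limit of detection, with a Poisson interval of 0.047 to 0.67 in expression units. The read-count fold of 662 had an interval of 226 to 3213. Among keratinocyte markers, 1 of 10 was in the table, SFN, an epithelial 14-3-3 protein, at 159.55 against 69.09. KRT5, KRT14, TP63 and the other markers of that list were not analysed here. The libraries came from a cultured cancer line, and any link of CSTA to these markers was not tested.

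The closest relatives of CSTA gave a different picture. CSTB, the other stefin, which is made in most cells, was at 204.24 against 65.09, and CST3, the secreted cystatin C, at 178.84 against 85.96. Their read-count folds were 3.14 (2.92 to 3.38) and 2.06 (1.92 to 2.20), and the fold of CSTA was 211 times that of CSTB (71.8 to 1026). In the summed level of these 3 cystatins, CSTA went from 0.152% in the wild type to 28.7% in the knockout. CSTA, CSTB and CST3 thus were of similar level in the knockout, while in the wild type CSTA was far below the other two. The 13 other genes of the cystatin list were not analysed here.

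LXN was at 122.86 against 0.06, from 2515 reads and 1 read. With 1 wild-type read, counting error around its fold of 2177 ran from 390 to 86017, more than 2 orders of magnitude. In the authors' deposited table its ratio is 2048, the 5th highest of all. The 100 genes without a wild-type read hold a wild-type value of 0.1 there, above the 0.06 of LXN. This lowers their ratios and can raise the rank of LXN. Of the latexin family, RARRES1, which lies beside LXN on chromosome 3, was not analysed here. The metallocarboxypeptidase CPE, a prohormone-processing enzyme, was the 1 gene of 18 on that list in the table, at 86.01 against 17.29.

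**Figure D2:**
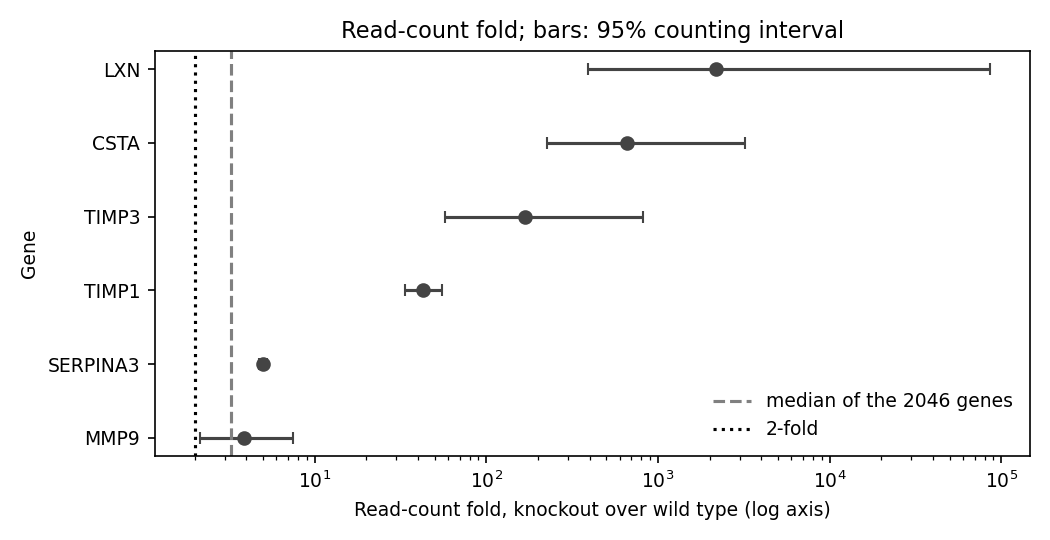
Read-count fold of the 6 genes, knockout over wild type (log axis), with 95% counting intervals, beside the 2-fold line (dotted) and the median fold of the 2046 genes (dashed). LXN, CSTA and TIMP3 have wide intervals because of 1 to 3 wild-type reads, and MMP9 and SERPINA3 lie closest to the median.

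The order of the read-count folds, from LXN through CSTA, TIMP3, TIMP1 and SERPINA3 to MMP9, was resolved in part. The fold of LXN over that of CSTA was 3.29 with an interval of 0.26 to 173, and that of CSTA over TIMP3 was 3.92 with 0.52 to 29.3. LXN and CSTA, and CSTA and TIMP3, could therefore not be ordered at this depth. TIMP3 lay above TIMP1, as given above, on 3 wild-type reads of TIMP3. On the log2(value + 1) scale TIMP3 lay below TIMP1, at 2.71 against 5.16. TIMP1 lay above SERPINA3 by read counts, with a ratio of folds of 8.51 (6.67 to 11.0). SERPINA3 and MMP9 could not be ordered.

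By wild-type reads the members formed different cases too. CSTA, LXN and TIMP3 had at most 3 wild-type reads, as had 9.48% of the table. Of the 237 genes with a knockout value of at least 100, 4 had so few, namely CSTA, LXN, the membrane proteins PMP22 (353.94 against 0.11) and BASP1 (233.32 against 0.03). The pair CSTA and LXN thus joined a high level in the knockout with almost no reads in the wild type. SULF2 was alike by level, at 204.81 against 0.11, but its 11.26 wild-type reads were above the limit. A limit on reads can thus leave out genes with more reads per unit of expression. TIMP1 and SERPINA3 were above 4 units in both libraries, and MMP9 was below 2 units in both.

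**Figure D3:**
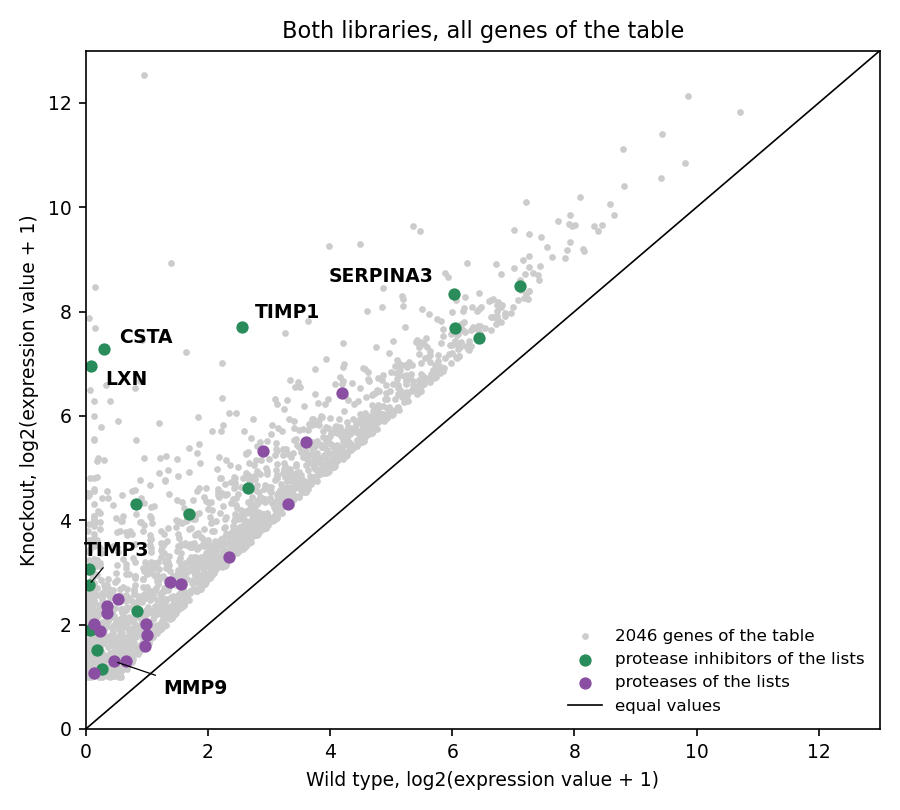
log2(expression value + 1) of the 2046 genes in the wild type (x axis) and the knockout library (y axis), with listed protease inhibitors in green, listed proteases in purple, the 6 genes by name and a line of equal values. CSTA and LXN lie at the left edge at a high knockout value, TIMP1 lies well above the main band, and MMP9 lies in the low corner.

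Nearest to each member over the 2 libraries, by Euclidean distance of the log2(value + 1) levels, were genes of many kinds. CSTA and LXN were each other's nearest gene (distance 0.39), followed by SULF2 for CSTA (0.43) and AKR1C1 for LXN (0.44). TIMP1 had no close match, with C3orf14 at 0.71 and TFF3 at 0.78. SERPINA3 was nearest to CD99 (0.11) and TMEM205 (0.19), TIMP3 to PDGFRL (0.017) and UGT2B15 (0.097), and MMP9 to PSD (0.059) and IFI44 (0.065). A distance over 2 libraries says only that the levels were alike.

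The other inhibitors on the lists are given for comparison, and the table cannot show how common such differences were in this system. Of 73 protease inhibitor genes listed, 17 were in the table, and 16 of these reached 2-fold (median log2 ratio 1.96). Without the 5 inhibitors chosen here, 12 of 68 were in the table, and 11 of them reached 2-fold (median 1.73). The table's own median was 1.33 and its share of genes at least 2-fold higher 80.6%. Of 121 protease genes listed, 18 were in the table, 11 of them at least 2-fold higher, with a median of 1.33. All counts are limited to the higher genes that the table holds, and the remaining members of the lists were not analysed here.

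Among the Kunitz, Kazal and WAP inhibitors of serine proteases, 4 of 14 were in the table. All 4 were at least 2-fold higher, beside 80.6% of all genes of the table. TFPI, which blocks the start of coagulation, was at 18.74 against 0.76, and its read-count fold was 24.5 (16.1 to 39.5). Its relative TFPI2, found in the matrix, was at 7.32 against 0.03 on 1 wild-type read, and the interval of its fold of 287 was 51.1 to 11350. WFDC2, a WAP-domain protein known as the tumour marker HE4, was at 16.27 against 2.21. SPINT2, which inhibits matriptase and hepatocyte growth factor activator, was at 360.75 against 137.13 and was the most abundant inhibitor of all those listed in the table.

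Of 35 serpins, 7 were in the table and 6 were at least 2-fold higher, beside 80.6% of the table. SERPINA4, the kallikrein inhibitor kallistatin, stood at 2.79 against 0.07. SERPINA5, the protein C inhibitor, stood at 2.70 against 0.05. Each had 2 wild-type reads. The intracellular serpins SERPINB1, SERPINB8 and SERPINB9 were at 23.69 against 5.33, 3.76 against 0.79 and 1.86 against 0.13.

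Among proteases, 4 of 23 matrix metalloproteinases were in the table. Of these, 2 were at least 2-fold higher, beside 80.6% of the table. The membrane-type enzymes MMP15 and MMP16 were at 5.89 against 1.94 and 2.68 against 0.17, and MMP25, also bound to the membrane, was at 2.49 against 1. MMP9 was the 1 secreted enzyme of the 4, and it held 11.7% of their summed level in the knockout and 10.6% in the wild type. MMP2, the other gelatinase, and MMP1, MMP3 and MMP14 were not analysed here. The fold of MMP16, 17.8 (12.1 to 27.2), lay above that of MMP9 with no overlap of the intervals.

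Of 30 ADAM and ADAMTS genes, 4 were in the table and 2 were at least 2-fold higher, beside 80.6% of the table. ADAMTS19 was at 4.13 against 0.27, and ADAM22, which lacks protease activity, at 2 against 0.96. ADAMTS1 and ADAMTS9, which cut proteoglycans, had 265 and 154 reads against 0, 76.5-fold and 44.4-fold higher when 3 reads stand for the 0 in the wild type. Their lower 95% counting limits, from the count of 0 itself, were 61.7 and 35.7, and there was no upper limit. The deposited table gives a wild-type value of 0.1 wherever the count is 0. ADAMTS9 missed 2-fold on the log2(value + 1) scale, at 1.11 against 0.10.

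Of 38 serine proteases of the cell surface and matrix, 7 were in the table. Of these, 4 were at least 2-fold higher, beside 80.6% of the table. TMPRSS4 was at 4.64 against 0.44, HTRA1 at 3.67 against 0.27, PCSK6 at 6.04 against 1.60 and TMPRSS3 at 3.03 against 0.97. FURIN, the proprotein convertase, at 18.77 against 8.96, PRSS23 at 8.79 against 4.05 and PLAU, the urokinase, at 1.46 against 0.58 were short of 2-fold on this scale. CTSG, the cathepsin G that SERPINA3 is known to block, was not analysed here. Of 12 leukocyte markers, 2 were in the table, S100A8 at 37.59 against 5.17 and S100A9 at 60.10 against 27.51, which epithelial cells also make, with a summed level of 97.7 against 32.7. PTPRC, CD14, ITGAM and the other leukocyte markers were not analysed here. Both libraries came from a cultured cancer line, and any link of MMP9 to these markers was not tested.

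Cysteine cathepsins, the targets of CSTA, gave 2 of 12, both at least 2-fold higher, beside 80.6% of the table. CTSH was at 44.11 against 11.10 and CTSL at 39.33 against 6.5. The level of CSTA was 3.92 times that of CTSL in the knockout and 0.035 times in the wild type, and 3.49 and 0.021 times that of CTSH. CSTA RNA thus stood below both of these targets in the wild type and above both in the knockout. The fold of CSTA was 106 times that of CTSL (35.4 to 520).

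Partners and substrates were sparse in the table. Of 13 receptors and binding partners of TIMP1, TIMP3 and MMP9, 1 was present, PLAUR, the urokinase receptor, at 5.02 against 1.33, while CD63, CD44 and LCN2 were not analysed here. Of 18 genes of basement membrane and elastic matrix, 2 were present, COL4A5 at 26.25 against 5.39 and COL4A6 at 3.40 against 0.34. These encode collagen IV chains and lie head to head on chromosome X. Fibroblast markers gave 0 of 10 and hepatocyte markers 0 of 8.

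**Figure D4:**
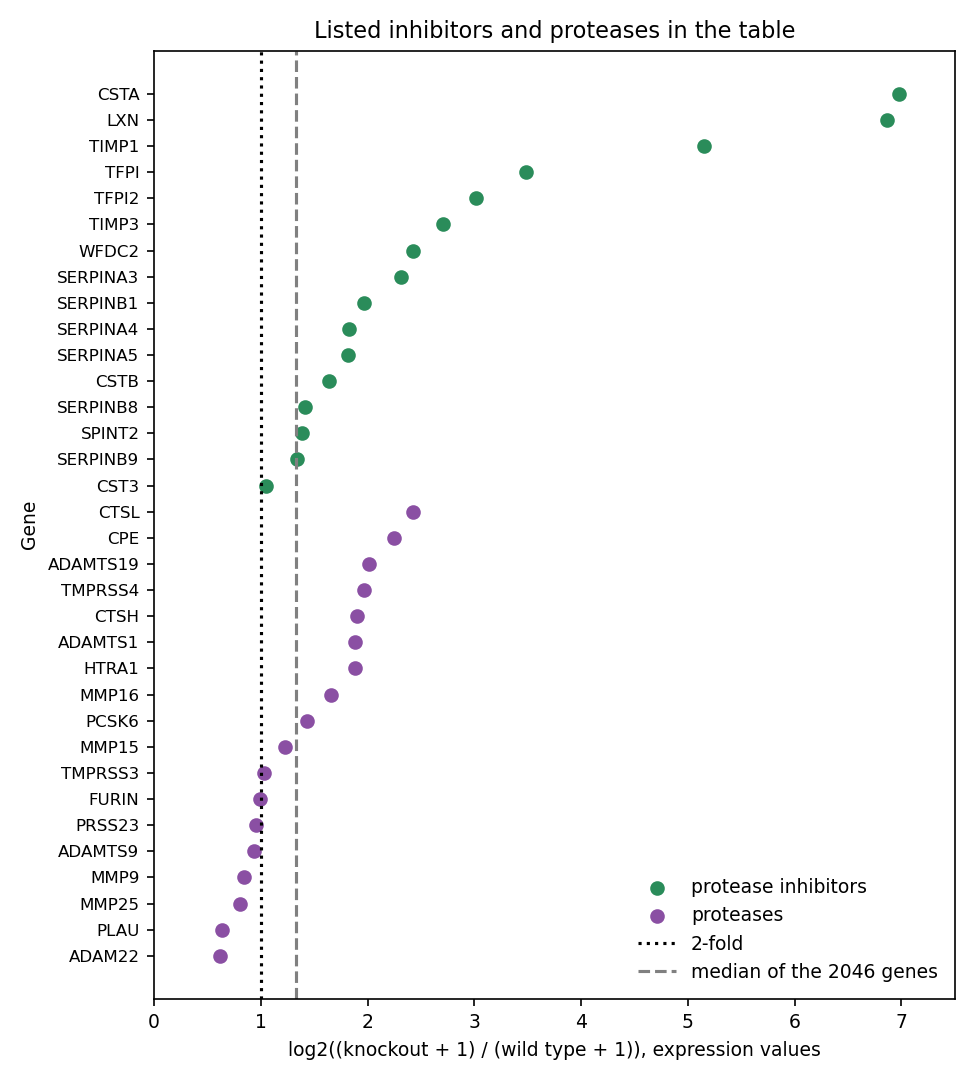
log2((knockout + 1) / (wild type + 1)) of the expression values for 16 of the 17 listed protease inhibitors (green) and 18 listed proteases (purple) in the table, with the 2-fold line (dotted) and the median of the 2046 genes (dashed). CSTA, LXN and TIMP1 lie far to the right of the other inhibitors, and no listed protease passes 2.43.

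The members lie on 5 chromosomes, and 3 of them lie wholly inside a gene of the opposite strand in GENCODE 29 on GRCh38. TIMP1 (X, 47582313 to 47586789, plus strand) lies inside SYN1, and TIMP3 (22, 32801701 to 32863043, plus strand) inside SYN3, genes of the related synapsins of nerve terminals. They share 0 exon bases with these hosts. LXN (3, 158645822 to 158672693, minus strand) lies inside GFM1, a mitochondrial elongation factor, and shares 45 of its 1504 exon bases with it, 2.99%. The levels of SYN1, SYN3 and GFM1 were not analysed here. Because the use of strand in counting is not given in the sources used here, reads from both strands cannot be told apart where exons overlap.

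**Figure D5:**
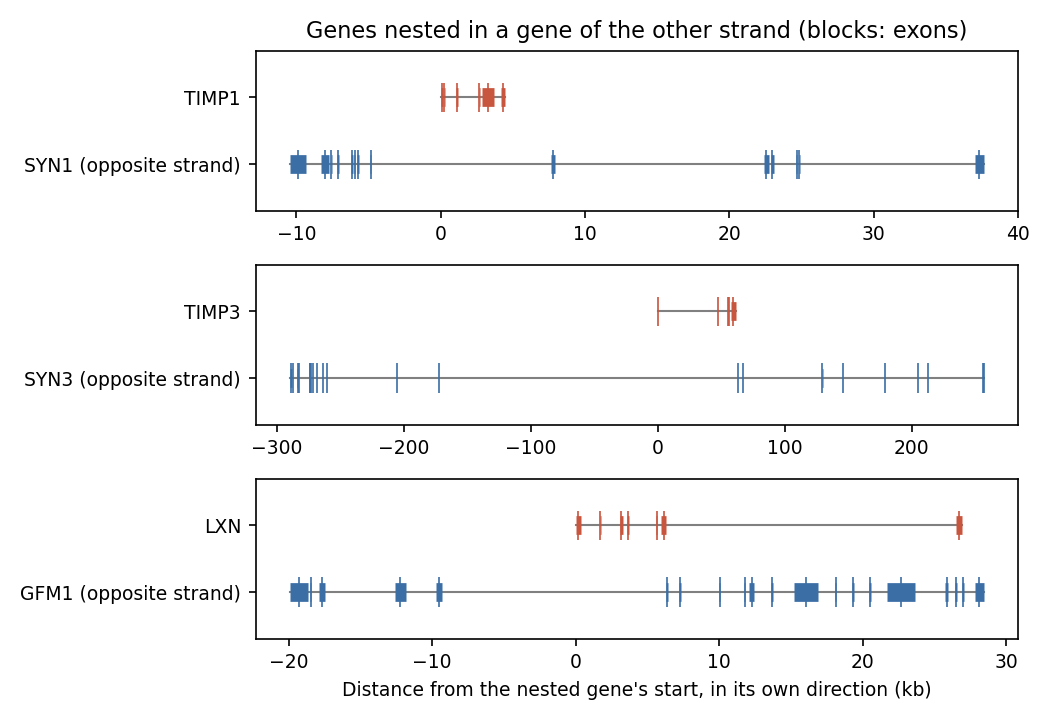
Exons (blocks, with a minimum drawn width) of TIMP1, TIMP3 and LXN (red) and of SYN1, SYN3 and GFM1 on the opposite strand (blue), by distance in kb from the start of the nested gene. TIMP1 and TIMP3 share 0 exon bases with their hosts, and LXN shares 45.

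The other members differ in this respect. CSTA (3, 122325244 to 122341972, plus strand) overlaps no other annotated gene. SERPINA3 (14, 94612377 to 94624055, plus strand) shares 31.8% of its exon bases with the readthrough model AL049839.2 on the same strand, so its reads could be split between them. MMP9 (20, 46008908 to 46016561, plus strand) shares 18.4% of its exon bases with the antisense RNA SLC12A5-AS1. Its values rest on 63 and 14 reads, and the part of the antisense RNA in them was not tested.

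Within 500 kb of the 6 genes lie 92 other protein-coding annotations, of which 11 are in the table. Beside SERPINA3 these were its relatives SERPINA5 and SERPINA4, 19.3 and 42.5 kb away, and the homeobox gene GSC (5.58 against 0.91). The folds of SERPINA4 and SERPINA5 were 38.5 (10.4 to 323) and 50.6 (13.7 to 423), above that of SERPINA3, whose fold was 0.131 times (0.016 to 0.487) and 0.099 times (0.012 to 0.368) theirs. SERPINA3 was still 115 and 119 times their level in the knockout. Beside MMP9 lay SLC12A5, a neuronal potassium chloride cotransporter, 5.13 kb away, at 1.17 against 0.22, and the fold of MMP9 was 0.716 times its fold, with an interval of 0.323 to 1.63 that includes 1.

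Near CSTA 4 of 16 neighbours were in the table, among them SLC15A2, a peptide transporter, at 1.97 against 0.18, and PARP14 at 12.21 against 5.52. Near TIMP3, FBXO7 had a fold of 2.41, and near TIMP1 the 1 of 17 in the table was USP11, with a fold of 3.29. Near LXN 0 of 7 were in the table. The folds of CSTA, TIMP3 and TIMP1 were far above those of the neighbours named here. That of SERPINA3 was below those of SERPINA4 and SERPINA5, and that of MMP9 was not told apart from that of SLC12A5. Because the members were chosen on this contrast and the neighbours by position, nothing is read from this.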

How the data were processed

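The authors deposited 1 table of 1 wild-type and 1 knockout library. The submitters' processing notes name the build GRCh38.p12 and the tools HISAT2 2.0.4 and CASAVA 1.4. How reads were counted, on which annotation and whether by strand, is not given in the sources used here. Per the file headers, the columns hold expression values of unnamed unit, treated as a signal per length and depth, and read counts. The deposited counts were taken to be expected counts because they are not whole in 43.7% of knockout and 40.7% of wild-type values. The deposited ratio is the knockout over the wild-type value in 2046 of 2046 genes (tolerance 1e-06). The deposited log2 columns were not used, because their headers are crossed. The number of per-sample columns not matched to a sample was 0.

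Because every gene passed limits on ratio and knockout value, library totals, scaling and enrichment could not be had. Reads per unit of expression followed the longest GENCODE 29 transcript (Spearman rho 0.81 across 1127 genes with at least 100 wild-type and knockout reads, which are not independent). The log2 ratio, log2((knockout + 1) / (wild type + 1)) of expression values, was called at 1 with no filter. Read-count folds are ratios of counts over 1.155, the median between-library ratio of reads per unit of expression (1133 genes, 100 or more wild-type reads each). Rounded counts gave the 95% interval, exact and binomial given their sum. Intervals of levels were exact Poisson, and those comparing 2 genes' folds were conditional odds ratio intervals (scipy 1.17.1). Intervals of folds and of 2 genes' folds were checked on simulated counts, at smaller folds than those of LXN, CSTA, TIMP3 and TIMP1. The genes drawn had more wild-type reads than LXN, CSTA and TIMP3, so intervals at so few reads were not checked. All these intervals reflect counting error alone, since each genotype has 1 library, and no correction for PCR copies was made here. For the read-count fold alone, a count of 0 was set to 3 reads. Its interval used the count of 0 and so had no upper limit, and the log2 ratio used the deposited value of 0.1.

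Members and lists were chosen with earlier results of these data known. A few genes that are counted are not reported by name here. Genes named are the 6 members, the other genes of the protease, inhibitor and matrix lists in the table, the 2 genes nearest to each member, overlapping genes and markers. Neighbours within 500 kb, PMP22 and BASP1 were added after their values were seen. Alternatives were other pseudocounts, a limit on low values, a 4-fold rule, centring, read counts and the counting interval.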

Additional observations from a re-analysis of the deposited data

How the results depend on the processing

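The ratio as deposited was chosen as an alternative after seeing the data, and the others are those set out with the design. Of the 6 members, 5 were at least 2-fold higher, and 4 to 6 were under the 8 alternatives. It was 4 where the mean of both libraries had to reach 5, which leaves out TIMP3, and 4 after centring on the median log2 ratio of the table (1.33), which leaves out SERPINA3 at 0.98. Centring treats a table chosen for higher genes as if it were shifted, and it turned the log2 ratio of MMP9 from 0.84 to -0.48. Of 30 alternative values of single members, 16 moved by less than their counting error, 13 by more and 1 changed sign. Stricter rules lower counts by construction. All genes at least 2-fold higher numbered 1650, against 844 with a pseudocount of 5, 436 under the 4-fold rule and 279 after centring. Protease inhibitors numbered 16, against 10 for a mean of 5 or more, 8 under the 4-fold rule and 7 after centring. Proteases numbered 11, against 17 with a pseudocount of 0.1, 17 by read counts, 18 by the ratio as deposited, 3 with a pseudocount of 5, 3 for a mean of 5 or more, 3 under the 4-fold rule and 1 after centring. No paired analysis was possible because each genotype has 1 library. Depth limits LXN, CSTA and TIMP3 through 1, 3 and 3 wild-type reads.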
